A study of Sus scrofa with 28 samples.

Results

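The genes described here encode the mitochondrial carriers of the SLC25 family, including the uncoupling proteins, in the infarcted pig heart. Members were taken by name. Every row of the count tables named SLC25A followed by a number, or UCP1, UCP2 or UCP3, was a member, which gave 42 of the 17603 genes listed. Of these, 40 had enough counts to be tested in the paired fit, and SLC25A44 and SLC25A45 did not, with at most 8 and 12 counts in any library. A further 3 rows, which only a reference table of names gives as SLC25A10, SLC25A32 and SLC25A46, fall outside this rule and were not analysed here.

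RNA was sequenced in bulk from the left ventricle of 14 wild-type Landrace pigs, 3 months old at the start, which all had the left anterior descending artery blocked by a balloon for 60 min and then reopened. At reperfusion the animals received Agrin, a recombinant human form of this extracellular matrix protein, at 33 µg/kg into the coronary artery, or PBS, named saline in the methods of the study, so that no animal was left without an infarct. From each heart, collected on day 28 or day 3, the study took the infarct zone and the remote zone, told apart with a dye for living tissue. This gave 4 Agrin animals and 3 PBS animals on each day and 28 libraries in 8 groups. The remote zone is tissue of the same injured heart, not of a healthy one.

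SLC25 proteins sit in the inner mitochondrial membrane, with few exceptions, and exchange metabolites between the cytosol and the matrix. The heart muscle cell depends on them at every step of its energy supply: acylcarnitine, phosphate and ADP enter the matrix, ATP leaves it, and the aspartate and oxoglutarate carriers of the malate-aspartate shuttle bring in reducing equivalents. The carriers are made in the cytosol and reach the membrane through the TOM and TIMM22 complexes. Many come as related pairs whose members are known to be used by different tissues, such as SLC25A4 (ANT1) in muscle and SLC25A5 (ANT2) in dividing cells.

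Depth was 15383495 to 34767278 counts per library, and the members together took 0.266% to 0.620% of them. Genes encoded in mitochondrial DNA held 5.78% to 10.6% of the counts in day 3 infarct libraries and 29.1% to 34.1% in day 3 remote libraries, so levels are given as CPM, the counts relative to library size after TMM scaling, which sets most genes level between libraries. The infarct library of animal 523 (day 28 PBS) stood apart from the other day 28 infarct libraries with 6.83% mitochondrially encoded counts. In animal 573 (day 3 PBS) the Y-linked genes KDM5D, ZFY and EIF1AY were counted in the infarct library and were at 0 in the remote library, while the zones of the other 13 animals matched, so its zones may not come from 1 animal. The infarct column of animal 577 (day 3 Agrin) carries a letter that the labels do not explain. Results that rest on these animals are given with and without them. The remote zone had the defining markers of heart muscle: 9 of 12 cardiomyocyte markers are in the tables, and their summed level was 2574 to 17368 CPM in day 3 infarct libraries and 69677 to 91601 CPM in day 3 remote libraries.

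The first comparison asked how the carrier genes differed between the infarct and the remote zone on day 3. In Agrin animals 10 members were higher and 17 lower at an adjusted p under 0.05 (25% and 42.5% of the 40 tested), where 37.6% and 33.1% of all 15409 genes were. In PBS animals the members again split into 10 higher and 17 lower, where 34.6% and 32.2% of all genes were called. The same 10 members were higher in both treatments (among them SLC25A5, SLC25A16, SLC25A17, SLC25A22, SLC25A24, SLC25A39, SLC25A48, SLC25A53 and UCP2), and 16 were lower in both. SLC25A48 and SLC25A53 passed the low-count filter in the infarct libraries and not in the remote ones, and UCP3, among the lower members, in the remote libraries and not in the infarct ones, so these 3 had to differ to be tested and support nothing here. The median log2 fold change of the members was -0.16 in Agrin animals and -0.15 in PBS animals, beside 0.061 and 0.036 over all genes. At the stricter thresholds of the study (at least 2-fold and over 30 counts in some library), 16 members in Agrin animals and 17 in PBS animals were past them, where 34.9% and 34.7% of all genes were. Read over both directions, these called shares were near those of all genes, and the carriers moved in both directions.

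The split depended on the scaling. With library totals in place of TMM, the median of all genes moved to 0.76 in Agrin animals and 0.69 in PBS animals. Then 22 members were higher and 9 lower in Agrin animals, beside 9588 and 2407 of 15409 genes. In PBS animals 20 and 8 were, beside 8768 and 2583. With totals that leave out the mitochondrially encoded genes these medians were 0.35 and 0.28, and the members split into 14 and 14 in either treatment. All genes then split into 7429 higher and 3751 lower in Agrin animals, and 6615 and 3887 in PBS animals. With library totals the calls of SLC25A21, SLC25A26, SLC25A35, SLC25A37, SLC25A40, SLC25A42 and SLC25A43 as lower were lost in both treatments. SLC25A1, SLC25A6, SLC25A13, SLC25A14, SLC25A15, SLC25A27, SLC25A28, SLC25A36, SLC25A38 and SLC25A47 passed as higher in both. Of these, SLC25A36 was called lower in PBS animals with TMM. The 5 largest falls (SLC25A4, SLC25A34, SLC25A12, SLC25A3 and SLC25A11) and the rises of UCP2, SLC25A5 and SLC25A24, described next, kept their direction and their call under both scalings.

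**Figure D1:**
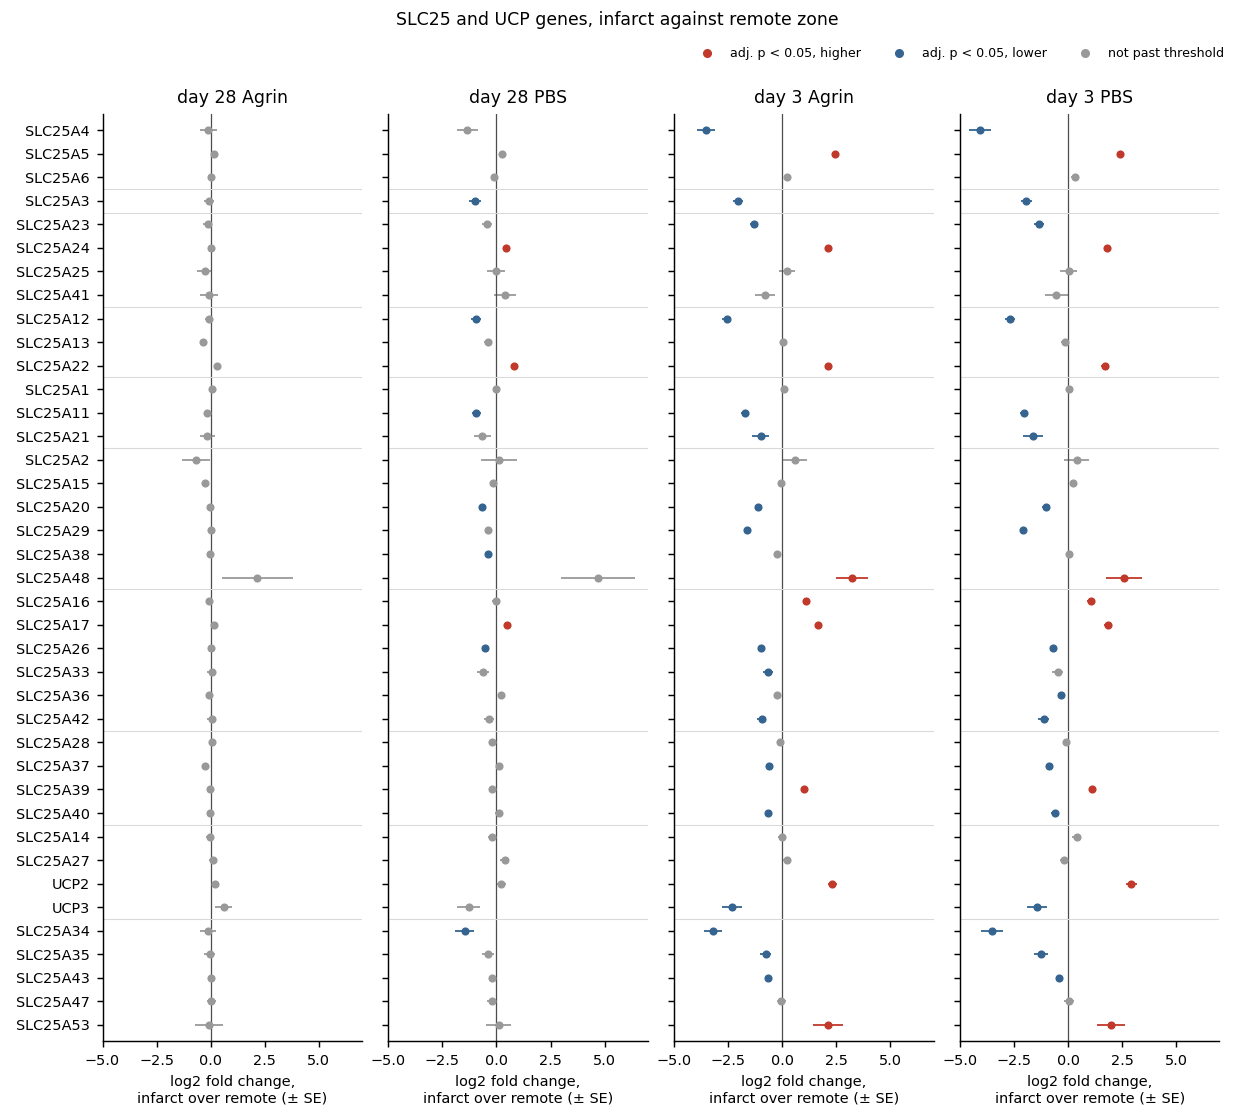
Log2 fold change of 39 of the 40 tested members, infarct over remote, with its standard error (edgeR), in 4 panels for day 28 Agrin, day 28 PBS, day 3 Agrin and day 3 PBS. Rows are grouped by role, red and blue mark members at an adjusted p under 0.05, and the day 3 PBS panel spreads between -4.08 (SLC25A4) and 2.93 (UCP2) while the day 28 Agrin panel has no coloured point.

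The adenine nucleotide carriers, which exchange ADP for ATP, went apart. SLC25A4, the isoform of heart and skeletal muscle, had 273, 482, 245 and 157 CPM in the infarct of Agrin animals, against 3736, 3346, 2705 and 2579 CPM in their remote zones. In PBS animals it had 71.4, 356 and 209 CPM in the infarct, against 2975, 3401 and 2631 CPM in the remote zone. No infarct library reached the lowest remote library. SLC25A4 was 11.5-fold lower in Agrin animals (log2 fold change -3.52 ± 0.43 (SE), adjusted p = 5.76e-06) and 16.9-fold lower in PBS animals (-4.08 ± 0.52 (SE), adjusted p = 1.04e-05; all adjusted p-values in this text are from edgeR's quasi-likelihood test with Benjamini-Hochberg adjustment unless another test is named).

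SLC25A5 moved the other way. It had 111, 87.9, 92.3 and 108 CPM in the infarct of Agrin animals, against 19.0, 20.9, 16.8 and 16.7 CPM in the remote zone. In PBS animals the infarct had 132, 93.5 and 139 CPM and the remote zone 24.2, 24.3 and 19.2 CPM. The zones did not overlap in either treatment, and the rises were 5.42-fold (log2 fold change 2.44 ± 0.13 (SE), adjusted p = 1.87e-09) and 5.34-fold (2.42 ± 0.15 (SE), adjusted p = 1.47e-08). SLC25A6 (ANT3), the widely expressed isoform, had 1326 to 1476 CPM in the 7 infarct libraries (median 1366) and 965.2 to 1388 CPM in the 7 remote libraries (median 1120.0), and did not pass (log2 fold change 0.24, adjusted p = 0.12, in Agrin animals and 0.30, adjusted p = 0.101, in PBS animals). By library, SLC25A6 had 1326, 1443, 1366 and 1338 CPM in the infarct of Agrin animals, against 1285, 1283, 1120.2 and 965.2 CPM in their remote zones, and 1406, 1476 and 1339.8 CPM in the infarct of PBS animals, against 1010.4, 1060.3 and 1388 CPM in theirs. It passed as higher in both treatments with library totals and with totals that leave out the mitochondrially encoded genes, and in PBS animals also with DESeq2 (0.28, adjusted p = 0.0435) and without animal 575 (0.48, adjusted p = 0.0371).

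Within the 3 genes' summed counts, which need no scaling between libraries, SLC25A4 held 4.44% to 23.9% of the counts in day 3 infarct libraries and 65.2% to 75.8% in day 3 remote libraries. SLC25A6 held 71.7% to 87.4% in the infarct and 23.6% to 34.4% in the remote zone. SLC25A5 held 4.37% to 8.21% in the infarct and 0.378% to 0.603% in the remote zone. The gene with most counts of the 3 was thus SLC25A6 in every day 3 infarct library and SLC25A4 in every day 3 remote library. Only reads with 1 place in the genome were counted, and these genes share sequence with each other and with processed copies, so their levels may be understated to different degrees.

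**Figure D2:**
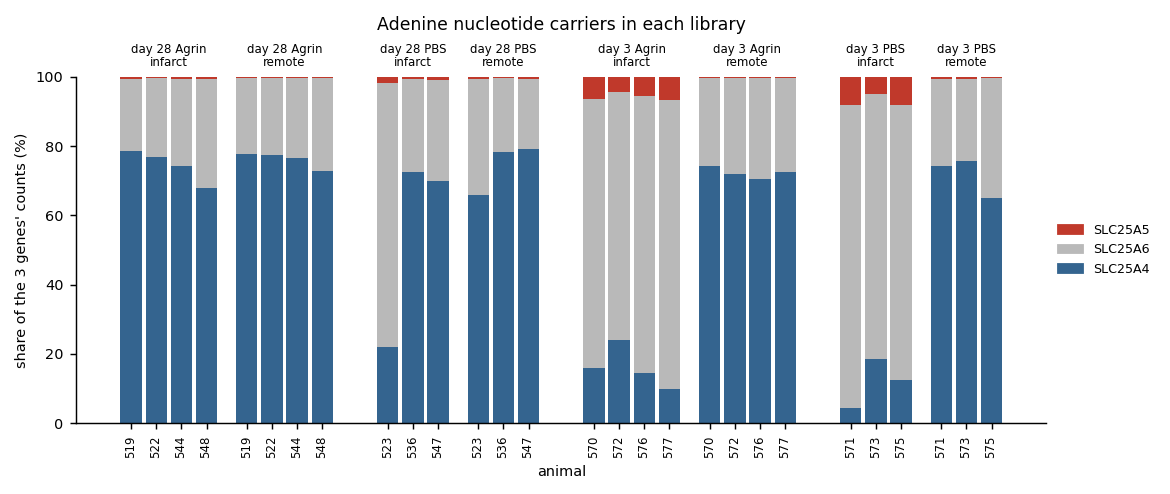
Share of the summed counts of SLC25A4 (blue), SLC25A6 (grey) and SLC25A5 (red) in each of the 28 libraries, in percent, by day, treatment and zone, with the animal number under each bar. SLC25A4 takes at most 23.9% in day 3 infarct libraries and at least 65.2% in day 3 remote libraries, and on day 28 the infarct bar of animal 523 stands apart at 22.0%.

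The 250 bases before the RefSeq gene start (Sscrofa11.1, RefSeq annotation) are shown for SLC25A4 and SLC25A5, which moved apart, for SLC25A34, which fell most beside SLC25A4, and for SLC25A3, each 5′ to 3′ on the strand of the gene. Capitals mark a match to the core element of the estrogen-related receptors (AAGGTCA, either strand) or to the NRF1 motif. These factors are known from other species to act on genes of mitochondrial metabolism.
SLC25A4, chr15:46193248-46193497 (+ strand): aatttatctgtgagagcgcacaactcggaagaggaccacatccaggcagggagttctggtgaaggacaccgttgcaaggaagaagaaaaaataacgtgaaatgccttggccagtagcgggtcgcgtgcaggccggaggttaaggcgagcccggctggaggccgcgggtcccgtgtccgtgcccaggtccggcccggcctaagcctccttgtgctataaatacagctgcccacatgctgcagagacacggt
SLC25A5, chrX:97919045-97919294 (+ strand): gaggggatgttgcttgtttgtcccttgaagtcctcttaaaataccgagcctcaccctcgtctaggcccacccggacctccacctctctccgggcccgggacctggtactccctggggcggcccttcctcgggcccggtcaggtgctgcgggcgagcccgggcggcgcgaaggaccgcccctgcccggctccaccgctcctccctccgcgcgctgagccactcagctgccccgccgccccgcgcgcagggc
SLC25A34, chr6:74909387-74909636 (+ strand): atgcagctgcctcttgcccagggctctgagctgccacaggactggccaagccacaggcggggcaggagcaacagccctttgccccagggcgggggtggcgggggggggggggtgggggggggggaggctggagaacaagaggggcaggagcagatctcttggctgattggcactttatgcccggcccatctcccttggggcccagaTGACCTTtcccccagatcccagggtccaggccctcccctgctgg
SLC25A3, chr5:85292337-85292586 (- strand): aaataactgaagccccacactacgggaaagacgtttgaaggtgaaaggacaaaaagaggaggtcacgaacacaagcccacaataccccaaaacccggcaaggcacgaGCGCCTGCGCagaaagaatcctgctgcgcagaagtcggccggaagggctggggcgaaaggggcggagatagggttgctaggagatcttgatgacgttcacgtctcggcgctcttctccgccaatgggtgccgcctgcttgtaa
Of the 42 members, 41 matched a RefSeq entry. AAGGTCA was found upstream of 3 of them (SLC25A16, SLC25A34 and UCP3, 7.32%) and of 3.24% of all 20638 genes, its longer form TCAAGGTCA upstream of 0 members and 0.325% of all genes, and the NRF1 motif upstream of SLC25A3 alone (2.44%) and 4.58% of all genes. A match is a description of these letters only. GC content of the windows was 58.8% for SLC25A4 and 72.4% for SLC25A5, and its median was 62.8% over the 10 members that rose in both treatments, 61.4% over the 16 that fell in both and 61.2% over the other 15.

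The phosphate carrier SLC25A3, which supplies the matrix with phosphate for ATP synthesis, fell with SLC25A4. It had 407, 495, 419 and 385 CPM in the infarct of Agrin animals, against 1798, 1864, 1648 and 1792 CPM in the remote zone. In PBS animals it had 333, 498 and 452 CPM in the infarct and 1696, 1548 and 1582 CPM in the remote zone. The zones lay far apart in both treatments, with log2 fold changes of -2.06 ± 0.23 (SE), adjusted p = 1.89e-06 in Agrin animals and -1.93 ± 0.26 (SE), adjusted p = 1.77e-05 in PBS animals. Counted per kilobase of the longest RefSeq mRNA, the order of the members changed: the highest were SLC25A6 with 1020.0 ± 42.7, SLC25A3 with 307 ± 42.9 and SLC25A4 with 159.8 ± 83.6 CPM per kb in the day 3 infarct (mean ± SD, n = 7). In the day 3 remote zone they were SLC25A4 with 1906 ± 279, SLC25A3 with 1224 ± 85.4 and SLC25A6 with 853 ± 118 CPM per kb. In the infarct, SLC25A5 (83.7 ± 15.3) and UCP2 (67.0 ± 15.4) came next, and their SDs overlap. In the remote zone the fourth was SLC25A12 (61.3 ± 5.58).

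The ATP-Mg/phosphate carriers, which set the adenine nucleotide pool of the matrix, included 1 rise and 1 fall among 4 members, beside the day 3 shares of all genes given above. SLC25A24 had 41.1, 29.1, 43.9 and 61.2 CPM in the infarct of Agrin animals, against 9.20, 7.50, 11.5 and 10.8 CPM in the remote zone, and 44.4, 25.4 and 50.9 CPM in the infarct of PBS animals, against 12.7, 8.25 and 13.3 CPM in the remote zone. Every infarct library was above every remote library, and SLC25A24 rose by 2.14 ± 0.10 (SE), adjusted p = 7.24e-10 and 1.79 ± 0.12 (SE), adjusted p = 2.5e-08 on the log2 scale. SLC25A23, its relative, had 19.1 to 39.8 CPM in the 7 infarct libraries (median 29.2) and 60.8 to 84.0 CPM in the 7 remote libraries (median 77.9), and was lower in both treatments (log2 fold change -1.32 and -1.32, adjusted p = 2.96e-05 and 0.000145). By library, SLC25A23 had 29.1, 39.3, 31.2 and 27.6 CPM in the infarct of Agrin animals, against 79.99, 84.0, 67.5 and 83.6 CPM in their remote zones, and 19.1, 39.8 and 29.2 CPM in the infarct of PBS animals, against 77.9, 60.8 and 73.5 CPM in theirs. SLC25A25 and SLC25A41 did not pass in either treatment, and SLC25A41 had at most 23 counts in a library.

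**Figure D3:**
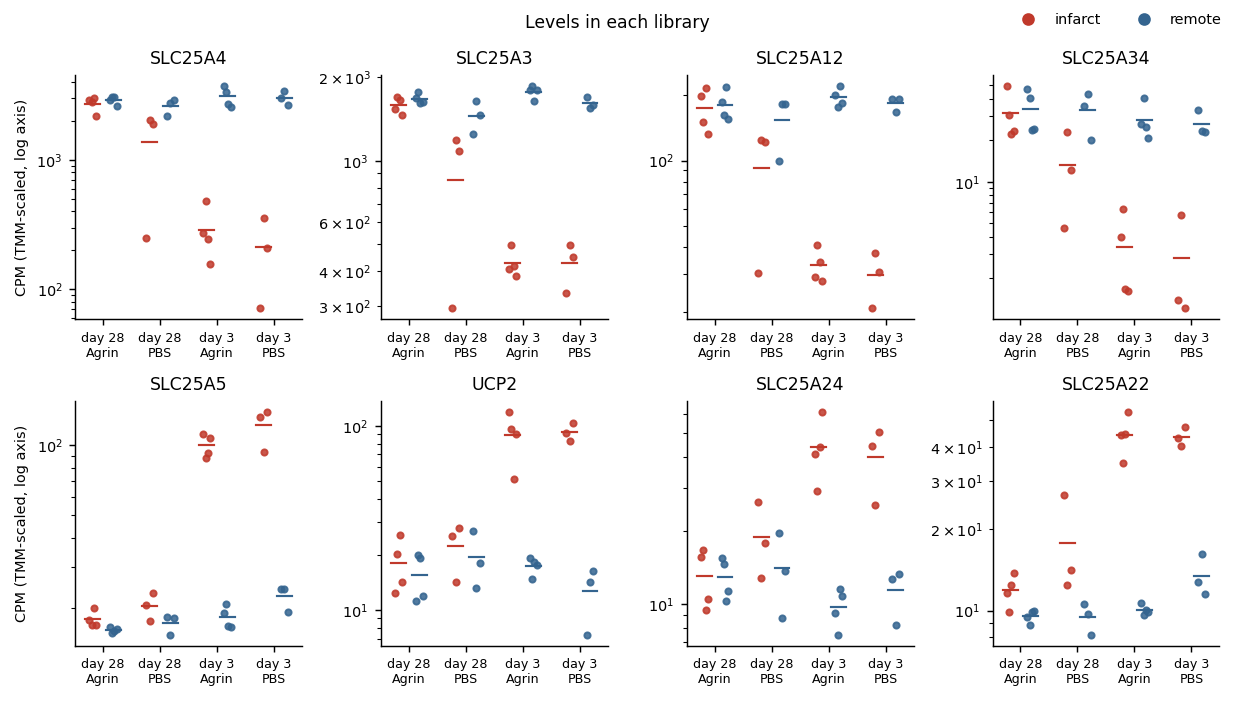
Level (CPM after TMM scaling, log axis) of 8 members in each library, with infarct in red left of remote in blue and the group mean as a bar, for day 28 Agrin, day 28 PBS, day 3 Agrin and day 3 PBS. The upper row holds members that fell on day 3 and the lower row members that rose, and on day 28 the lowest infarct point of each panel in the upper row is animal 523 (PBS).

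Of the carriers of the malate-aspartate shuttle, SLC25A12 (aralar, the calcium-regulated aspartate/glutamate carrier of heart and brain) and SLC25A11 (the oxoglutarate carrier) fell. SLC25A12 had 29.1, 40.9, 34.3 and 27.9 CPM in the infarct of Agrin animals, against 199.9, 176, 221 and 184 CPM in the remote zone, a log2 fold change of -2.58 ± 0.20 (SE), adjusted p = 6.96e-08. In PBS animals it had 20.9, 37.5 and 30.6 CPM in the infarct and 193, 168 and 191 CPM in the remote zone (-2.67 ± 0.23 (SE), adjusted p = 3.29e-07). All 7 infarct libraries were below the remote ones. SLC25A11 had 9.28 to 16.6 CPM in the infarct (median 14.5) and 47.0 to 55.7 CPM in the remote zone (median 50.1), with log2 fold changes of -1.73 in Agrin and -2.03 in PBS animals (adjusted p = 4.51e-07 and 6.79e-07). By library, SLC25A11 had 15.7, 16.6, 14.5 and 14.5 CPM in the infarct of Agrin animals, against 55.7, 50.1, 48.6 and 48.9 CPM in their remote zones, and 9.28, 12.7 and 15.2 CPM in the infarct of PBS animals, against 50.7, 47.0 and 51.8 CPM in theirs. SLC25A13 (citrin), known as the aspartate/glutamate carrier of liver, had 16.7 to 23.0 CPM in the infarct and 16.8 to 25.5 CPM in the remote zone, and did not pass, though it passed as higher with library totals. Its zones overlapped, since SLC25A13 had 18.7, 16.7, 20.3 and 22.4 CPM in the infarct of Agrin animals, against 22.2, 20.8, 16.8 and 16.9 CPM in their remote zones, and 17.7, 19.3 and 23.0 CPM in the infarct of PBS animals, against 25.5, 20.7 and 19.5 CPM in theirs. SLC25A22, a carrier of glutamate with protons, rose to 44.1, 34.8, 44.4 and 53.7 CPM in the infarct of Agrin animals, against 10.7, 9.65, 10.1 and 9.86 CPM in the remote zone (2.12 ± 0.15 (SE), adjusted p = 2.82e-08). In PBS animals it rose to 42.9, 40.4 and 47.3 CPM, against 12.7, 16.1 and 11.5 CPM (1.71 ± 0.17 (SE), adjusted p = 1.07e-06), again with no overlap.

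Of the 6 tested carriers of carnitine and of basic or other amino acids, 2 fell (SLC25A20 and SLC25A29), 1 rose (SLC25A48, on few counts) and 3 did not pass, the same in each treatment. Among all genes, 33.1% fell and 37.6% rose in Agrin animals, and 32.2% and 34.6% in PBS animals. SLC25A20, the carnitine/acylcarnitine carrier of fatty acid oxidation, had 17.2 to 25.2 CPM in the infarct and 28.2 to 60.6 CPM in the remote zone of the 7 animals (log2 fold change -1.11 in Agrin and -1.03 in PBS animals, adjusted p = 3.28e-06 and 3.39e-05). SLC25A29, a carrier of basic amino acids, had 12.8 to 22.5 CPM in the infarct and 47.4 to 94.9 CPM in the remote zone, and its log2 fold changes were -1.62 and -2.06. SLC25A21, an oxodicarboxylate carrier with at most 59 counts in a library, was also lower in both treatments, but its Agrin call was lost without animal 570, without animal 572 and with totals that leave out the mitochondrially encoded genes. The citrate carrier SLC25A1, the ornithine carrier SLC25A15 and the glycine carrier SLC25A38 did not pass in either treatment on day 3, with log2 fold changes between -0.24 and 0.23, while in Agrin animals SLC25A38 passed as lower with DESeq2 (-0.27, adjusted p = 0.0479) and with median-of-ratios scaling (-0.27, adjusted p = 0.043) and as higher with library totals (0.46, adjusted p = 0.00299), and in PBS animals it passed as higher with library totals. SLC25A2, an ornithine carrier with at most 12 counts in a library, did not pass either.

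The 7 cofactor and nucleotide carriers included 3 higher and 3 lower members in each treatment. Of all genes, 37.6% were higher and 33.1% lower in Agrin animals, and 34.6% and 32.2% in PBS animals. SLC25A17, the exception of the family that sits in peroxisomes and carries coenzyme A, FAD and NAD, had 22.2 to 31.5 CPM in the infarct and 6.38 to 11.5 CPM in the remote zone (log2 fold change 1.65 in Agrin and 1.84 in PBS animals, adjusted p = 7.25e-08 and 1.78e-07). SLC25A16 also rose, by 1.10 in Agrin animals and 1.07 in PBS animals on the log2 scale. The coenzyme A carrier SLC25A42 and the S-adenosylmethionine carrier SLC25A26 fell in both treatments, with log2 fold changes of -0.95 and -0.98 in Agrin animals and -1.13 and -0.70 in PBS animals, and these calls were lost with library totals. The pyrimidine nucleotide carriers were near the threshold: SLC25A33 passed as lower in Agrin animals alone (log2 fold change -0.64, adjusted p = 0.0246; PBS -0.48, adjusted p = 0.131), and SLC25A36 in PBS animals alone (-0.34, adjusted p = 0.0183; Agrin -0.23, adjusted p = 0.0516). In single libraries, SLC25A33 had 4.66, 5.87, 6.49 and 6.88 CPM in the infarct of Agrin animals, against 12.4, 10.4, 9.56 and 5.90 CPM in their remote zones, and 4.90, 6.99 and 9.14 CPM in the infarct of PBS animals, against 10.1, 8.95 and 9.502 CPM in theirs. Likewise, SLC25A36 had 52.4, 52.9, 52.5 and 42.2 CPM in the infarct of Agrin animals, against 62.4, 57.9, 65.2 and 49.7 CPM in their remote zones, and 50.3, 46.3 and 49.5 CPM in the infarct of PBS animals, against 52.2, 71.0 and 63.4 CPM in theirs. The zones overlapped in both treatments for SLC25A33 and in Agrin animals for SLC25A36, whose zones did not overlap in PBS animals. In Agrin animals SLC25A33 ranged from -0.925 to -0.389 with 1 animal left out and lost its call without animal 570, 572 or 576, and SLC25A36 passed as lower with DESeq2 (adjusted p = 0.0322), median-of-ratios scaling (adjusted p = 0.0333) and no filter (adjusted p = 0.0291). In PBS animals SLC25A36 lost its call without animal 573 or 575. With library totals SLC25A33 in Agrin animals and SLC25A36 in both treatments turned direction, and SLC25A36 then passed as higher in both treatments. Neither gene passed the test of the difference between treatments.

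SLC25A39, which carries glutathione, rose to 86.1 to 103.1 CPM in the 7 infarct libraries, against 40.1 to 52.8 CPM in the remote libraries (log2 fold change 1.00 in Agrin and 1.12 in PBS animals, adjusted p = 1.45e-06 and 2.94e-06). By library, SLC25A39 had 102, 86.1, 86.4 and 97.2 CPM in the infarct of Agrin animals, against 43.8, 49.5, 40.1 and 52.8 CPM in their remote zones, and 90.5, 96.5 and 103.1 CPM in the infarct of PBS animals, against 46.9, 45.3 and 41.5 CPM in theirs. Its relative SLC25A40 fell to 8.53 to 10.3 CPM, against 11.7 to 19.3 CPM (log2 fold change -0.66 and -0.62), a direction that turned with library totals. The PBS call was also lost without animal 575 (-0.40, adjusted p = 0.0679) and with totals that leave out the mitochondrially encoded genes (-0.38, adjusted p = 0.057). In single libraries, SLC25A40 had 9.67, 10.3, 10.3 and 8.55 CPM in the infarct of Agrin animals, against 12.4, 15.4, 16.6 and 17.1 CPM in their remote zones, and 8.53, 9.55 and 9.33 CPM in the infarct of PBS animals, against 12, 11.7 and 19.3 CPM in theirs. Mitoferrin-1, SLC25A37, an iron carrier known from red cell precursors, fell to 4.85 to 6.35 CPM in the infarct, against 7.15 to 10.6 CPM in the remote zone (log2 fold change -0.62 and -0.89), and its direction in Agrin animals also turned with library totals, with which its call in PBS animals was lost. By library, SLC25A37 had 4.93, 4.85, 6.04 and 6.35 CPM in the infarct of Agrin animals, against 8.62, 7.15, 9.79 and 8.53 CPM in their remote zones, and 5.49, 4.86 and 5.84 CPM in the infarct of PBS animals, against 9.97, 10.6 and 9.59 CPM in theirs. Mitoferrin-2, SLC25A28, had 29.7 to 44.1 CPM in the infarct and 33.7 to 52.4 CPM in the remote zone and did not pass, though with library totals it passed as higher. Its zones overlapped, since SLC25A28 had 43.5, 41.1, 29.7 and 32.9 CPM in the infarct of Agrin animals, against 41.6, 35.3, 34.5 and 44.3 CPM in their remote zones, and 42.5, 44.1 and 33.2 CPM in the infarct of PBS animals, against 41.6, 52.4 and 33.7 CPM in theirs.

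UCP2, the uncoupling protein of immune and many other cells, had 119, 96.1, 51.2 and 90.9 CPM in the infarct of Agrin animals, against 19.2, 14.8, 18.3 and 17.5 CPM in the remote zone. In PBS animals it had 91.4, 83.0 and 104 CPM in the infarct and 7.36, 14.2 and 16.4 CPM in the remote zone. The zones did not overlap, and UCP2 was 4.94-fold higher in Agrin animals (log2 fold change 2.30 ± 0.21 (SE), adjusted p = 2.81e-07) and 7.64-fold higher in PBS animals (2.93 ± 0.25 (SE), adjusted p = 2.41e-07). UCP3, the muscle member, lies next to UCP2 on chromosome 9 and had few counts: 9, 2, 0 and 2 in the infarct of Agrin animals, against 29, 13, 0 and 6 in their remote zones, and 9, 4 and 2 in the infarct of PBS animals, against 9, 11 and 4 in theirs. It was tested only through the remote zone, where it is high, and passed as lower in both treatments (log2 fold change -2.32 and -1.44), but in animal 576 both zones had 0 counts, and in PBS animals the call was lost without animal 573, without the animal as a block and with library totals. The related SLC25A27 (UCP4) and SLC25A14 (UCP5), known from brain, did not pass. UCP1 was not analysed here.

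Of the members without a firmly known substrate, SLC25A34 fell most. It had 3.97, 6.32, 1.68 and 1.60 CPM in the infarct of Agrin animals, against 26.2, 40.7, 24.9 and 20.7 CPM in the remote zone, and 1.40, 5.78 and 1.21 CPM in the infarct of PBS animals, against 33.0, 23.2 and 23.1 CPM in the remote zone. Infarct levels varied among the PBS animals, and all 7 were below the remote range, with log2 fold changes of -3.19 ± 0.41 (SE), adjusted p = 9.54e-06 and -3.52 ± 0.50 (SE), adjusted p = 2.89e-05. SLC25A35 and SLC25A43 also fell in both treatments, SLC25A43 with log2 fold changes of -0.67 and -0.44. With totals that leave out the mitochondrially encoded genes the call of SLC25A35 was lost in Agrin animals and that of SLC25A43 in PBS animals, and SLC25A35 was lost in Agrin animals without animal 576 or 577. SLC25A53, and SLC25A48, which was counted above with the carriers of carnitine and amino acids, passed as higher on few counts. Both were tested only through the infarct, where they are high. For SLC25A48 these were 20, 13, 16 and 10 in the infarct of Agrin animals, against 0, 1, 2 and 1 in their remote zones, and 19, 10 and 12 in the infarct of PBS animals, against 0, 3 and 1 in theirs. For SLC25A53 they were 3, 2, 7 and 17 in the infarct of Agrin animals, against 1, 1, 2 and 0 in their remote zones, and 14, 10 and 9 in the infarct of PBS animals, against 1, 2 and 2 in theirs. Their fitted fold changes depend on the prior count and are not given as sizes, and both calls were lost in PBS animals without animal 571 or without animal 575. DESeq2 did not call SLC25A48 in PBS animals.

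Members next to each other on a chromosome did not always share a direction. Members that lie within 100000 bases of each other form 4 neighbouring pairs in RefSeq's Sscrofa11.1: SLC25A5 and SLC25A43 on X, 12524 bases apart, UCP2 and UCP3 on 9, 13471 bases apart, SLC25A29 and SLC25A47 on 7, and SLC25A23 and SLC25A41 on 2. In the first of these pairs SLC25A5 rose and SLC25A43 fell on day 3 in both treatments, the call of SLC25A43 being lost with library totals. In the UCP pair UCP2 rose, and the call of UCP3 supports nothing, since it was tested only through the remote zone. In the other pairs SLC25A29 and SLC25A23 fell, and SLC25A47 (log2 fold change -0.036 and 0.032) and SLC25A41 (-0.79 and -0.54) did not pass.

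Most day 3 calls held without the doubted animals. Without animal 577, 9 members were higher and 16 lower in Agrin animals, beside 5375 and 4781 of 15342 genes. Without animal 573, 9 were higher and 14 lower in PBS animals, beside 5038 and 4641 of 15701 genes. SLC25A4 had a log2 fold change of -3.35, adjusted p = 7.41e-05, without animal 577 and -4.52, adjusted p = 3.87e-05, without animal 573, and SLC25A5 had 2.36, adjusted p = 4.62e-08, without animal 577 and 2.65, adjusted p = 3.57e-08, without animal 573. The calls lost included SLC25A35 and SLC25A53 without animal 577, and SLC25A36, SLC25A43 and UCP3 without animal 573.

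Markers of several cell types also differed between the zones. All 9 cardiomyocyte markers in the tables were lower in the day 3 infarct in both treatments, with a median log2 fold change of -3.32 in Agrin animals and -3.84 in PBS animals. Of 7 macrophage markers, 6 in Agrin animals and 5 in PBS animals were higher, and their summed level was 1325 to 2252 CPM in day 3 infarct libraries and 79.0 to 296.5 CPM in day 3 remote libraries. Of 8 fibroblast markers 7 were higher in Agrin animals, and 6 higher and 1 lower in PBS animals. All 3 proliferation markers and all 3 neutrophil markers in the tables were higher in both, as were 5 of 6 tested lymphocyte markers. Of 6 endothelial markers 0 were higher and 1 lower in each treatment. Of 5 smooth muscle and pericyte markers 3 were higher and 1 lower in Agrin animals, and 2 and 1 in PBS animals. In Agrin animals 1 of 4 adipocyte markers was higher and 2 of 2 erythroid markers lower, and in PBS animals 0 of either passed. Of all genes, 37.6% were higher and 33.1% lower in Agrin animals, and 34.6% and 32.2% in PBS animals. In bulk tissue, fewer cells of a type and less RNA per cell cannot be told apart, and the part of cell mixture in the carriers' changes was not tested.

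Ratios of related carriers within an animal, which need no scaling between libraries, were compared next. The ratio of SLC25A5 to SLC25A4 rose in all 7 animals on day 3, by 6.20 ± 0.99 on the log2 scale (mean ± SD, n = 7; range 4.87 to 7.83; exact two-sided sign-flip permutation test, p = 0.0156, the smallest that 7 animals allow, adjusted p = 0.0335 over 15 ratios). The mean log2 ratio was -1.05 in the infarct and -7.24 in the remote zone. The ratio of SLC25A6 to SLC25A4 rose by 4.04 ± 0.92, also in 7 of 7 animals. So did SLC25A13 to SLC25A12 (2.58 ± 0.49), SLC25A24 to SLC25A23 (3.30 ± 0.62) and SLC25A39 to SLC25A40 (1.69 ± 0.36), each with the same exact permutation p and adjusted p. In SLC25A5 to SLC25A4, SLC25A24 to SLC25A23 and SLC25A39 to SLC25A40, the first gene rose and the other fell in all 7 animals. The p-values of these pairs were thus fixed by the levels given above and are no further support. The change of UCP2 to UCP3 (4.24 ± 1.08) is given as a description only, since UCP3 met the count minimum only through the remote zone and had 0 counts in both zones of animal 576. The ratio of the mitoferrins, SLC25A37 to SLC25A28, was lower in 6 of 7 animals, with a mean change of -0.65 ± 0.32, and did not pass (exact permutation p = 0.0312, adjusted p = 0.0586). SLC25A36 to SLC25A33 changed by 0.29 ± 0.66, higher in 4 of 7 animals, and did not pass (exact permutation p = 0.312). The day 3 tests count animal 573, whose zones may not come from 1 animal, as a pair. With each of the 7 animals left out in turn, the mean change of SLC25A5 to SLC25A4 on day 3 was 5.922 to 6.416. With any 1 animal left out the smallest p is 0.0312 and no ratio can pass after adjustment, so such a loss says nothing on stability.

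**Figure D4:**
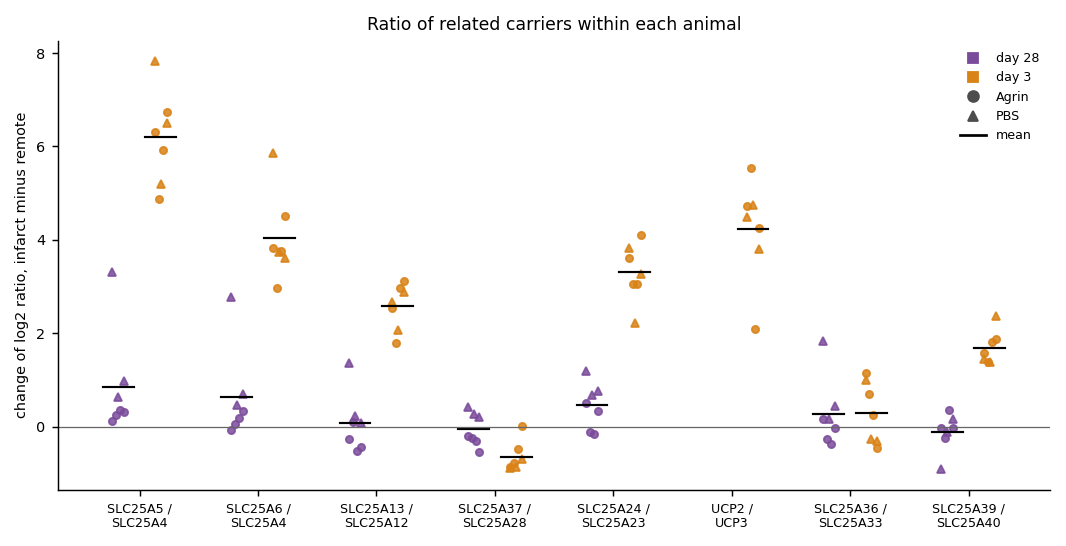
Change of the log2 ratio of related carriers, infarct minus remote, in each animal on day 28 (purple) and day 3 (orange), with circles for Agrin, triangles for PBS and a bar for the mean. On day 3 all 7 points of 6 pairs lie above 0 (among them UCP2 / UCP3, which rests on few counts of UCP3), and on day 28 the highest triangles of SLC25A5 / SLC25A4 and SLC25A6 / SLC25A4 are animal 523.

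On day 28 no carrier gene passed between the zones of Agrin animals. None of the 40 members passed in edgeR (2 at an unadjusted p under 0.05, beside 599 of all genes, and 0 by DESeq2), nor did any gene of the table (0% of 15409). SLC25A4 had 2870.4, 2802, 2982 and 2193 CPM in the infarct, against 2906, 3053, 3051 and 2619.8 CPM in the remote zone of these animals. SLC25A5 had 17.8, 17.0, 20.0 and 16.9 CPM in the infarct and 16.6, 15.7, 16.1 and 16.3 CPM in the remote zone. The zones overlapped for SLC25A4 and were apart by little for SLC25A5 (log2 fold change 0.15 ± 0.13 (SE), adjusted p = 1). Cardiomyocyte markers summed to 65321 to 75858 CPM in the infarct and 72486 to 76749 CPM in the remote zone of the Agrin animals on day 28.

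In PBS animals on day 28, 3 members were higher and 7 lower in the infarct, where 12.7% and 12.3% of all genes were (7.5% and 17.5% of the members). The higher ones were SLC25A22, SLC25A17 and SLC25A24, and the lower ones SLC25A34, SLC25A3, SLC25A12, SLC25A11, SLC25A20, SLC25A26 and SLC25A38. SLC25A34 alone was past the thresholds of the study, where 7.83% of all genes were. The split turned with library totals, to 8 members higher and 2 lower, beside 5161 and 491 of 15409 genes. With totals that leave out the mitochondrially encoded genes it was 3 and 5, beside 2742 and 1032 genes. Without animal 523, and so with 1 animal fewer in the fit, SLC25A11 was the only member to pass. In that fit 4.08% of all genes were higher and 1.38% lower. The log2 fold changes of SLC25A3, SLC25A11, SLC25A12, SLC25A34 and SLC25A38 were nearer 0 without it, while SLC25A17, SLC25A24 and SLC25A26 kept log2 fold changes of 0.43, 0.48 and -0.53. Without the animals as a block in the fit 1 member passed as higher (SLC25A22) and 0 as lower, beside 845 and 294 of 15409 genes. Without animal 536, 1 was higher and 7 lower, beside 1413 and 1485 of 15716 genes. Without animal 547, 2 and 6 were, beside 1632 and 1621 of 15713 genes. The call of SLC25A17 was lost without any 1 of the 3 PBS animals. Cardiomyocyte markers summed to 9997 CPM in the infarct of animal 523, 54865 in that of animal 536 and 50559 in that of animal 547, against 45296, 74239 and 67456 CPM in their remote zones.

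By animal, SLC25A3 had 294, 1187 and 1085 CPM in the infarct of animals 523, 536 and 547, against 1251, 1645 and 1462 CPM in the remote zone (-0.98 ± 0.26 (SE), adjusted p = 0.0166; -0.43, adjusted p = 0.145, without animal 523). SLC25A12 had 30.2, 124 and 122 CPM in the infarct, against 99.1, 182 and 181 CPM (-0.94 ± 0.22 (SE), adjusted p = 0.00933; -0.54, adjusted p = 0.128, without animal 523). Animal 523 had the lowest infarct level of both genes, and the other 2 animals were lower in the infarct as well. SLC25A11 had 10.3, 30.7 and 31.9 CPM in the infarct, against 33.6, 47.6 and 44.2 CPM in the remote zone (-0.92 ± 0.19 (SE), adjusted p = 0.00455; -0.53, adjusted p = 0.0474, without animal 523). SLC25A34 had 4.63, 22.9 and 12.2 CPM in the infarct, against 35.1, 43.4 and 20.1 CPM (-1.47 ± 0.44 (SE), adjusted p = 0.0276; -0.80, adjusted p = 0.291, without it). All 3 animals were lower in the infarct for both.

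SLC25A20 had 15.3, 30.05 and 27.1 CPM in the infarct of PBS animals on day 28, against 32.5, 40.4 and 38.9 CPM in the remote zone (-0.67 ± 0.15 (SE), adjusted p = 0.00666; -0.45, adjusted p = 0.115, without animal 523). SLC25A4 had 249, 2017 and 1879 CPM in the infarct, against 2174, 2747 and 2898 CPM, and did not pass (-1.35 ± 0.49 (SE), adjusted p = 0.0588). It was -0.51, adjusted p = 0.473, without animal 523, passed without animal 536 (-1.88, adjusted p = 0.0423) and was called by DESeq2. The infarct of animal 523 was within the day 3 infarct range of SLC25A4, and its own remote zone was the lowest of the 3. Of the members that rose, SLC25A22 had 26.7, 12.4 and 14.1 CPM in the infarct, against 10.6, 9.71 and 8.17 CPM (0.83 ± 0.17 (SE), adjusted p = 0.00466; 0.59, adjusted p = 0.0684, without animal 523), SLC25A17 had 16.2, 9.35 and 8.81 CPM, against 10.5, 7.42 and 6.27 CPM (0.49 ± 0.15 (SE), adjusted p = 0.0287; 0.43, adjusted p = 0.193, without it), and SLC25A24 had 26.1, 12.8 and 17.9 CPM, against 19.5, 8.78 and 13.7 CPM (0.45 ± 0.11 (SE), adjusted p = 0.0132; 0.48, adjusted p = 0.0657, without it). All 3 animals were higher in the infarct for these genes. SLC25A26 had 6.21, 8.85 and 8.13 CPM in the infarct, against 8.55, 11.4 and 13.6 CPM (-0.52 ± 0.14 (SE), adjusted p = 0.0181; -0.53, adjusted p = 0.0966, without animal 523), and SLC25A38 had 12.1, 14.3 and 12.6 CPM, against 19.3, 18.3 and 13.7 CPM (-0.38 ± 0.13 (SE), adjusted p = 0.0452; -0.22, adjusted p = 0.42, without it). SLC25A38 was also lost without animal 536 (-0.40, adjusted p = 0.114). SLC25A5 and UCP2, among the largest rises of day 3, did not pass here (0.24, adjusted p = 0.237, and 0.22, adjusted p = 0.517).

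**Figure D5:**
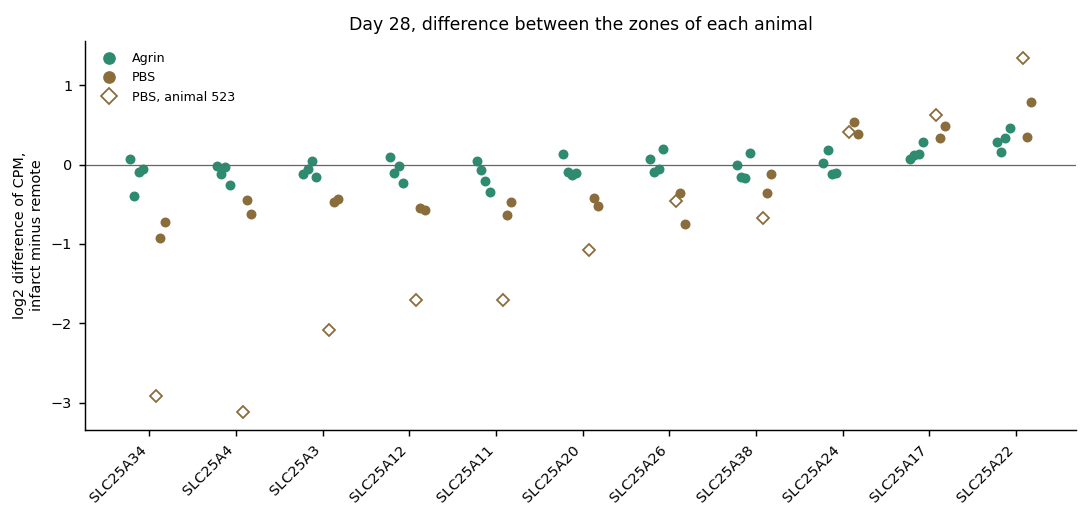
Difference of log2 CPM between the infarct and the remote zone of each animal on day 28, Agrin animals (green) left of PBS animals (brown, animal 523 as an open diamond), for the 10 members that passed in PBS animals and SLC25A4. The PBS points of SLC25A34, SLC25A4, SLC25A3, SLC25A12, SLC25A11 and SLC25A20 all lie below the Agrin points, and animal 523 is the farthest from 0 among the PBS points for each of these. The 10 members were chosen by the zone difference of these same PBS animals, so this placing supports nothing. Over all genes, the Agrin and PBS differences did not overlap for 26.2%.

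Whether the infarct response differed between Agrin and PBS was tested directly. On day 3, 0 members differed in edgeR (1 at an unadjusted p under 0.05, beside 684 of 15409 genes, and 0 by DESeq2), where 0% of all genes did. On day 28 also 0 members passed in edgeR, with a lowest adjusted p of 0.101, where 0.668% of all genes passed. At an unadjusted p under 0.05 in edgeR were 10 of the 40 members, beside 3332 of 15409 genes. DESeq2 called SLC25A11 alone of the members, beside 1068 of all genes. The difference for SLC25A11 was 0.78 ± 0.25 (SE), adjusted p = 0.101 on the log2 scale, for SLC25A20 0.62 ± 0.20 (SE), adjusted p = 0.101 and for SLC25A4 1.24 ± 0.62 (SE), adjusted p = 0.264. By animal, the zone differences of the 4 Agrin and the 3 PBS animals did not overlap on day 28 for 13 of 40 members (32.5%), where they did not overlap for 26.2% of all genes. Agrin animals were above PBS animals in 10 of these, among them SLC25A3, SLC25A4, SLC25A11, SLC25A12, SLC25A20 and SLC25A34, and below in SLC25A17, SLC25A24 and SLC25A37. The 10 include UCP3, which had few counts and supports nothing here. On day 3 SLC25A29 alone did not overlap (2.5%, where 4.11% of all genes did not).

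Within the infarct zone on day 28, SLC25A20 and SLC25A42 were higher in Agrin than in PBS animals, 2 of 39 members tested, where 7.32% of all genes passed in either direction. SLC25A20 had 45.02, 44.8, 46.5 and 37.5 CPM in the infarct of Agrin animals, against the 15.3, 30.05 and 27.1 CPM given above for PBS animals (0.86 ± 0.20 (SE), adjusted p = 0.0271). SLC25A42 had 19.4, 20.6, 30.2 and 19.8 CPM in Agrin animals and 11.9, 17.4 and 11.7 CPM in PBS animals (0.73 ± 0.20 (SE), adjusted p = 0.0435). The groups did not overlap for either gene. Both calls were lost without animal 523, and likewise without any of the Agrin animals 519, 522 or 544. Without animal 536, 5 members were higher in Agrin animals and 1 lower, beside 622 and 1515 of 15211 genes. SLC25A42 was also lost without animal 547 or 548 and with either kind of library totals in place of TMM. In the infarct on day 3 no member passed (0 at an unadjusted p under 0.05, and 0 by DESeq2; 0% of all genes). In the remote zone no member of 37 passed on either day, where 0% of all genes passed on day 28 and 0% on day 3. At an unadjusted p under 0.05 in edgeR were 1 on day 28 and 2 on day 3, beside 656 and 554 of 14324 genes. DESeq2 called 0 members there.

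The infarct response itself differed between the days. In Agrin animals the infarct-to-remote change was higher on day 28 than on day 3 in 14 members and lower in 8, where 26.5% and 29.8% of all genes were. In PBS animals it was higher in 9 and lower in 8, where 20.6% and 22.3% of all genes were. The 14 of Agrin animals include UCP3, which was tested only through the remote zone, where it is high, so its call supports nothing. The difference for SLC25A4 was 3.41 ± 0.57 (SE), adjusted p = 0.00018 in Agrin animals and 2.73 ± 0.69 (SE), adjusted p = 0.00641 in PBS animals on the log2 scale, and that for SLC25A5 was -2.29 ± 0.18 (SE), adjusted p = 2.72e-07 and -2.18 ± 0.21 (SE), adjusted p = 5.09e-06. SLC25A3 passed in Agrin animals (1.99 ± 0.31 (SE), adjusted p = 0.00011) and not in PBS animals (0.95 ± 0.37 (SE), adjusted p = 0.0509), where it did pass with DESeq2 (adjusted p = 0.0166), with median-of-ratios scaling (adjusted p = 0.0462), without the block (adjusted p = 0.0349), without animal 523 (1.52, adjusted p = 0.000149) and without animal 573 (1.09, adjusted p = 0.0491). With each PBS animal left out in turn its difference ranged from 0.649 to 1.517. The 8 members with a lower response on day 28 were the same in both treatments and included SLC25A5, SLC25A16, SLC25A17, SLC25A22, SLC25A24, SLC25A39 and UCP2. The Agrin and PBS tests used different animals, but each shared its libraries with the comparisons of zones above.

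Between the days, the infarct zone differed and the remote zone did not pass. In the infarct, 16 members were higher and 11 lower on day 28 than on day 3 in Agrin animals, of 39 tested (32.4% and 29.5% of all genes), and 15 were higher and 9 lower in PBS animals (25.6% and 21.7%). The 15 were 8 without animal 536 and 7 without animal 571. The counts of all genes in these fits are not given, so this drop is not read as particular to the members. SLC25A6 was among the lower ones in both treatments, with log2 fold changes of -0.49 ± 0.15 (SE), adjusted p = 0.0136 in Agrin animals and -0.75 ± 0.18 (SE), adjusted p = 0.00455 in PBS animals. In the remote zone 0 of 37 members passed in Agrin animals (0% of all genes) and 0 in PBS animals (0% of all genes), and 0 by DESeq2 in either. At an unadjusted p under 0.05 in edgeR were 2 members in Agrin animals and 7 in PBS animals, beside 1294 and 1465 of 14324 genes. SLC25A4 in the remote zone had 2174 to 3053 CPM on day 28 (median 2898) and 2579 to 3736 CPM on day 3 (median 2975).

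On day 28, 1 of 7 ratios of related carriers passed. SLC25A5 to SLC25A4 was still higher in the infarct of 7 of 7 animals, by 0.85 ± 1.12 on the log2 scale (exact two-sided sign-flip permutation test, p = 0.0156, adjusted p = 0.0335). Its mean was 0.26 in Agrin animals and 1.64 in PBS animals, of which animal 523 had 3.30, and the mean over the other 6 animals was 0.44. SLC25A6 to SLC25A4 was higher in 6 of 7 animals by 0.63 ± 0.98 and did not pass (exact permutation p = 0.0469, adjusted p = 0.0781), and neither did SLC25A24 to SLC25A23 (0.45 ± 0.48, exact permutation p = 0.0625). Nor did SLC25A13 to SLC25A12 (0.075 ± 0.64), the mitoferrins (-0.057 ± 0.36), SLC25A36 to SLC25A33 (0.28 ± 0.74) and SLC25A39 to SLC25A40 (-0.11 ± 0.40). In all 7 ratios, the 1 that passed included, the mean difference was smaller than its SD among animals. UCP2 to UCP3 was left out on day 28, where UCP3 averaged under 10 counts in both zones.

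Genes that work with the carriers were counted from 3 lists. Of the TOM and TIMM22 machinery that imports carriers, 14 of 16 listed genes were in the tables, and on day 3 0 were higher and 8 lower in both treatments, where 37.6% and 33.1% of all genes were higher and lower in Agrin animals and 34.6% and 32.2% in PBS animals. An example is TOMM70, the receptor for carrier precursors (log2 fold change -1.25 in Agrin and -1.12 in PBS animals). On day 28 in PBS animals 11 of the 14 were lower and 0 higher, where 12.3% of all genes were lower, and without animal 523 0 of the 14 were lower, where 1.38% of all genes were. The list's median was -0.52 and -0.48 on day 3. Of 22 enzymes that make or use the carried metabolites, 6 were higher and 15 lower on day 3 in both treatments, beside those shares of all genes, with medians of -1.75 and -1.74. GOT1, the cytosolic aspartate aminotransferase of the shuttle, and CPT1B, the muscle carnitine palmitoyltransferase, were lower (GOT1 -3.28 and -3.72, CPT1B -2.75 and -3.19). CPT1A, the form of liver and many other cells, was higher (1.29 and 0.92), as were PYCR1 (2.96 and 2.75) and SHMT2 (1.78 and 1.83), enzymes of proline and serine metabolism. On day 28 in PBS animals 3 of these enzymes were higher and 12 lower, where 12.7% and 12.3% of all genes were, and without animal 523 1 was higher and 1 lower, where 4.08% and 1.38% of all genes were.

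Mitochondrial transporters of other families also went both ways. Of 18 in the tables (20 listed), 7 were higher and 9 lower on day 3 in Agrin animals, where 37.6% and 33.1% of all genes were, and 6 and 8 in PBS animals, where 34.6% and 32.2% were. The sideroflexin SFXN3 (3.42 and 3.39) and SLC8B1, the sodium/calcium exchanger of the inner membrane (3.57 and 3.35), were higher, and MPC2, a subunit of the pyruvate carrier (-1.90 and -1.90), and the outer membrane channel VDAC3 (-2.04 and -2.10) were lower. No gene of the 3 lists passed in Agrin animals on day 28, where 0 of all genes did. On day 28 in PBS animals 4 of the transporters were higher and 7 lower, beside 12.7% and 12.3% of all genes, and without animal 523 1 was higher and 2 lower, beside 4.08% and 1.38%.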

How the data were processed

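Left ventricular RNA of 14 pigs (28 libraries) was analysed from the raw counts per gene that the authors deposited. The authors made them with bcl2fastq 2.20.0.422, cutadapt, STAR 2.7.3a on the pig genome Sscrofa11, Picard 2.22.4 (molecular identifiers) and HTSeq, which kept uniquely mapped reads, and tested with DESeq2 1.26.0. Their normalized tables and comparisons were not used. Groups came from the labels, in which each animal number names 1 heart with 2 zones. For animal 573 the zones may not come from 1 animal, as said above.

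Counts were tested with edgeR 4.0.16 in R 4.3.3 (TMM scaling, low-count filter by group, robust quasi-likelihood F test, Benjamini-Hochberg over all genes), in a model with a term for each animal and an infarct term for each treatment on each day. Zones were also fitted alone without a block. The animals' zones deviated together (correlation 0.151 to 0.59, median 0.369), and the pairing comes from the labels. Ratios used a prior count of 0.5 and a minimum mean of 10 counts. The code was tested on simulated data. Alternatives were DESeq2 1.42.0, other scalings, no filter, no block and each animal left out.

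Members, gene lists and named members (the 5 largest rises and 5 largest falls that passed in both treatments on day 3, up to 10 passing on day 28, any passing between Agrin and PBS, and the related pairs) were chosen with earlier results of these data known. Of the listed genes, 4594 had no name in the tables and 3933 still had none after the reference names were added. Values of 1 member are not reported here, though it is included in the counts.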

Additional observations from a re-analysis of the deposited data

Results flagged for a closer look

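A sample far from the others of its group was seen in 10 of 119 groups looked at. Chance gives about 1 in 20 for independent groups, and genes of the same animals are not independent. All flagged levels were of Agrin groups, so the flags do not clear the PBS levels. In the day 28 PBS infarct, for example, SLC25A4 had 249 CPM in animal 523, against 2017 and 1879 CPM, without a flag. SLC25A26 had 12.41 CPM in the remote zone of animal 522 (day 28 Agrin; others 10.47 to 10.8) and SLC25A33 had 10.89 CPM in that of animal 519 (others 7.255 to 7.753). In the day 28 Agrin infarct, animal 544 had 43.81 CPM of SLC25A36 (others 51.61 to 52.29), 30.24 CPM of SLC25A42 (others 19.43 to 20.64) and 0.08174 CPM of SLC25A48, which is 2 counts (others 0). SLC25A36 had 42.17 CPM in the day 3 infarct of animal 577 (Agrin; others 52.35 to 52.94). On day 28, animal 523 (PBS) stood apart in the infarct minus remote log2 ratio of SLC25A5 to SLC25A4 (3.302; others 0.1205 to 0.9841), SLC25A6 to SLC25A4 (2.765; others -0.08266 to 0.7004), SLC25A13 to SLC25A12 (1.370; others -0.5241 to 0.2264) and SLC25A36 to SLC25A33 (1.837; others -0.3753 to 0.4461).

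The infarct response differed between day 28 and day 3 by the interaction term of the edgeR fit. In Agrin animals 14 members were higher and 8 lower. The log2 differences, day 28 minus day 3, were 3.414 for SLC25A4, 3.073 for SLC25A34, 2.506 for SLC25A12, 1.99 for SLC25A3, 1.584 for SLC25A11, 1.174 for SLC25A23, 1.062 for SLC25A20, 1.004 for SLC25A26, 0.998 for SLC25A42, 0.619 for SLC25A40 and 0.368 for SLC25A37. UCP3 had 2.921, which is no measure of size, since UCP3 was tested only through the remote zone, where it is high, and had 0 counts in both zones of animal 576. They were -2.291 for SLC25A5, -2.141 for SLC25A24, -2.1 for UCP2, -1.81 for SLC25A22, -1.495 for SLC25A17 and -1.032 for SLC25A39. In PBS animals 9 members were higher and 8 lower. The differences were 2.73 for SLC25A4, 2.044 for SLC25A34, 1.731 for SLC25A12, 1.111 for SLC25A11, 1.006 for SLC25A37, 0.897 for SLC25A23, 0.719 for SLC25A40 and 0.536 for SLC25A36. They were -2.716 for UCP2, -2.176 for SLC25A5, -1.351 for SLC25A17, -1.349 for SLC25A24, -1.309 for SLC25A39 and -0.877 for SLC25A22. With each animal of the comparison left out in turn, the call was lost in 6 of 8 fits for SLC25A37 and 1 of 8 for SLC25A40 in Agrin animals, and in PBS animals in 4 of 6 for SLC25A34 and SLC25A23 and in 2 of 6 for SLC25A22, SLC25A36 and SLC25A40.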

How the results depend on the processing

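With library totals in place of TMM, the members higher and lower in the infarct were 22 and 9 on day 3 in Agrin animals, 20 and 8 on day 3 in PBS animals, and 8 and 2 on day 28 in PBS animals. In the same order, all genes split into 9588 and 2407, 8768 and 2583, and 5161 and 491. The response differed between days in 8 members upward and 17 downward in Agrin animals, beside 1991 and 8205 of all genes. Between treatments on day 28, 2 members differed, beside 11 genes upward and 1110 downward. Within the day 28 infarct 1 member differed, beside 70 and 1532 genes. On day 28, 17 were lower than on day 3 in the Agrin infarct and 6 higher in the PBS infarct. Both counts stand without the shares of all genes under these totals, so they are not read as particular to the members. Under the same totals the log2 difference turned on day 3 in Agrin animals for SLC25A28 (0.616), SLC25A33 (0.062), SLC25A36 (0.473), SLC25A37 (0.086), SLC25A38 (0.463) and SLC25A40 (0.044), in PBS animals for SLC25A13 (0.523), SLC25A28 (0.575), SLC25A36 (0.311) and SLC25A40 (0.032), and between days in Agrin animals for SLC25A28 (-0.471), SLC25A36 (-0.491), SLC25A37 (-0.265), SLC25A38 (-0.435) and SLC25A40 (-0.014). With totals that leave out mitochondrially encoded genes, 1 member differed within the day 28 infarct, beside 109 genes upward and 1617 downward. Without the animal as a replicate block, 1 member was higher and 0 lower on day 28 in PBS animals, beside 845 and 294 of all genes. DESeq2 called 1 member between treatments on day 28 and 5 within the day 28 infarct, beside 1068 and 2462 of all genes. The cause was not tested in any of these.

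With each of the 3 PBS animals of day 28 left out in turn, the day 28 PBS counts ranged from 0 to 2 higher and 1 to 7 lower. With each animal of the groups compared left out, the count within the day 28 infarct ranged from 0 to 6, and the members higher on day 28 in the PBS infarct from 7 to 15. The counts of all genes also changed between such fits, and those for the last range are not given. These ranges are therefore not read as particular to the members. The mean ratio changes ranged from 0.441 to 0.971 (day 28) and 5.922 to 6.416 (day 3) for SLC25A5 to SLC25A4, and on day 3 from 3.731 to 4.213 for SLC25A6 to SLC25A4, 2.484 to 2.705 for SLC25A13 to SLC25A12, 3.171 to 3.483 for SLC25A24 to SLC25A23, 4.151 to 4.591 for UCP2 to UCP3 and 1.58 to 1.744 for SLC25A39 to SLC25A40. With 2 of the animals left out, UCP3 fell under the count minimum and gave no value. Over all settings, 2476 values of single members kept direction and call, 51 gained a call, 98 lost one and 15 turned. Members with few counts (SLC25A2, SLC25A41, SLC25A48, SLC25A53 and UCP3) are limited by depth.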
